A study of Mus musculus with 2 samples.

Results

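The 7 genes described here encode enzymes of the pentose phosphate pathway: Tkt (transketolase), Tktl2 (a transketolase-like protein), Taldo1 (transaldolase), Pgd (6-phosphogluconate dehydrogenase), Pgls (6-phosphogluconolactonase), Rpia (ribose 5-phosphate isomerase) and Rpe (ribulose 5-phosphate epimerase). Their peaks were taken from a map of anti-FLAG CUT&Tag in mouse hippocampus, as the peaks to which the submitters had assigned one of these gene symbols. This gave 27 of 99782 annotated peaks, at 6 of the 7 genes, and Rpe counted as 0. CUT&Tag uses an antibody to bring a transposase to chromatin, so that DNA near the antibody's target is cut and sequenced. The antibody here was against FLAG, a short peptide tag, and was used to capture PARIS, a zinc-finger transcriptional repressor that the mouse gene Zfp746 encodes. The anti-FLAG group was 1 library and the IgG control group was 1 library, both from untreated C57BL/6J mice of the genotype CamK-PARIS, so the tagged protein was common to both groups. The labels give no age, no number of animals, and no promoter or cell type for the transgene beyond what the genotype's name says. Only the anti-FLAG peak list, called by the submitters against the IgG library, was analysed here. With 1 library per antibody, no value below has a replicate error and none was tested.

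The pentose phosphate pathway runs beside glycolysis in the cytosol. Its oxidative branch turns glucose 6-phosphate into ribulose 5-phosphate through glucose-6-phosphate dehydrogenase, Pgls and Pgd, and yields NADPH, which cells use to regenerate reduced glutathione and to build lipids. Its non-oxidative branch is reversible: Rpia and Rpe interconvert pentose phosphates, and transketolase and transaldolase move carbon units between sugar phosphates, which links nucleotide synthesis to glycolysis. In the brain the pathway is known chiefly as a source of NADPH against oxidative stress. Tkt has been reported as a gene that PARIS represses, and the insulin response sequence TATTTTT or TATTTTG as the DNA element PARIS binds.

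Each peak carries 2 values from the submitters, the maximum signal (the highest coverage within the peak) and the total signal (coverage summed over its bases). Their scale is not stated and the sequencing depth is unknown, so values are compared only within this list, as percentiles of its 99797 peaks. A peak is called of constant height where its total signal is at least 99% of maximum signal times width, which is a flat block of coverage. Of all peaks, 63.3% were of this kind. The maximum signal had a median of 101 and quartiles of 66 and 135. A peak near the start of a gene means one whose region of maximum signal lay within 1 kb of the transcription start site (TSS) to which the submitters assigned it, with negative distances upstream. The labelled tissue was set beside marker genes, read against all protein-coding genes, of which 72.7% had an assigned peak and 42.5% had one within 1 kb. Markers of excitatory hippocampal neurons had an assigned peak at 8 of 8 genes and one within 1 kb at 5 of 8. For interneurons these counts were 5 of 5 and 4 of 5, for astrocytes 4 of 4 and 1 of 4, for oligodendrocytes 3 of 4 and 1 of 4, and for microglia 4 of 4 and 2 of 4. For 4 genes of other tissues (Alb, Myh6, Ins2 and Krt5) they were 1 and 0. The lists are short, and a peak at a gene is not a measure of its expression, so they do not identify the tissue.

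The sequences shown are those under peaks near gene starts, the peaks assigned to Tkt, some of the peaks assigned to Rpia, and the start regions of some genes that had no peak there. All are from the RefSeq assembly GRCm38.p6, which is the mm10 build, and are written 5′ to 3′ on the strand of the gene. Capitals mark the insulin response sequence (TATTTTT or TATTTTG) and the antioxidant response core (TGACNNNGC, recognised by the NADPH-gene activator Nrf2), each searched on both strands. The first 3 are windows of 200 bp centred on the region of maximum signal of the peaks nearest to the starts of Pgls, Pgd and Taldo1, and they hold neither motif.
Pgls, chr8:71591836-71592035, plus strand: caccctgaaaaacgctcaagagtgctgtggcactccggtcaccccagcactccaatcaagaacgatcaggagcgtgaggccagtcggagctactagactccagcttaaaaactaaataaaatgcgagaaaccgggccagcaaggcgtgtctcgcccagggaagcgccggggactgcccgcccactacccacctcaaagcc
Pgd, chr4:149167035-149167234, minus strand: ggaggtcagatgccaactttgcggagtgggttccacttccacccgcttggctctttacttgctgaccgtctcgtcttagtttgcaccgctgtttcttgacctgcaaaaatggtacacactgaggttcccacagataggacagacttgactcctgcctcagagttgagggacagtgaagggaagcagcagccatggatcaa
Taldo1, chr7:141392796-141392995, plus strand: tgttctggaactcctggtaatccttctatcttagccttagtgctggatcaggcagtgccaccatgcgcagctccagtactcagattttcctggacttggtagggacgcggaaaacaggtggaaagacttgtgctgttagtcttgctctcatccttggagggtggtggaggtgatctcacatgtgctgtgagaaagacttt

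The next pair are the same kind of window at the only 2 peaks assigned to Tkt, both upstream of the gene and neither with a motif in the window.
Tkt, nearer peak, chr14:30537820-30538019, plus strand: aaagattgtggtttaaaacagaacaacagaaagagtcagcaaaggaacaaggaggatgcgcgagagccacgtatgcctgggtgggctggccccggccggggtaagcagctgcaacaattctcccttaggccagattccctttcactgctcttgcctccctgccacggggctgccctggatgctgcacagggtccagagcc
Tkt, farther peak, chr14:30533162-30533361, plus strand: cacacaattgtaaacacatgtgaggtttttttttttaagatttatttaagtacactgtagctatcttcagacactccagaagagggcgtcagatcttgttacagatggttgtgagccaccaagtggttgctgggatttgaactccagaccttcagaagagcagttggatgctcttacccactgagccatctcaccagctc

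For 3 genes without a peak near the start, the 250 bp before the RefSeq start are shown. That of Tkt lies within the GENCODE gene, whose annotated 5′ end is farther upstream. Those of Tkt and Rpe hold neither motif, and that of Tktl2 holds TATTTTT once.
Tkt, chr14:30548881-30549130, plus strand: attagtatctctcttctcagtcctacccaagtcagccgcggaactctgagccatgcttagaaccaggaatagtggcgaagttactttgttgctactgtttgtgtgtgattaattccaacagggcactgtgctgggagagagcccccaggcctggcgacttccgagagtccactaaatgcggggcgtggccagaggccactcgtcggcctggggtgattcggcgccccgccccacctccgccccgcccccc
Rpe, chr1:66700581-66700830, plus strand: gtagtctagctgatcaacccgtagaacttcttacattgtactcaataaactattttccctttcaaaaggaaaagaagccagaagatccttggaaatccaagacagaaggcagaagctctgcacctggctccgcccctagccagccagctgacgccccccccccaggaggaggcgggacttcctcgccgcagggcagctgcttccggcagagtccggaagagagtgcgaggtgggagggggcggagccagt
Tktl2, chr8:66511490-66511739, plus strand: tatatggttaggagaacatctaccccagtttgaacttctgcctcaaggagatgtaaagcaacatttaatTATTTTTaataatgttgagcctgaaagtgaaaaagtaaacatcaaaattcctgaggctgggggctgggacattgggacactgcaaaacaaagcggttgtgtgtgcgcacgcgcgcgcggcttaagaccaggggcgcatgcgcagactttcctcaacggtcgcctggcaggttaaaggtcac

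The last 3 windows belong to peaks assigned to Rpia: the only peak inside the gene, the upstream peak that holds the antioxidant response core, and the peak with the highest signal of the 27.
Rpia, intron, chr6:70770122-70770321, minus strand: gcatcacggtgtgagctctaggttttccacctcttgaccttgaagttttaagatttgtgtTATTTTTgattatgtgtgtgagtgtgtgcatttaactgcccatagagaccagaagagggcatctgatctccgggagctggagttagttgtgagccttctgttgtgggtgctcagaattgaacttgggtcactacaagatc
Rpia, upstream, chr6:70812636-70812835, minus strand: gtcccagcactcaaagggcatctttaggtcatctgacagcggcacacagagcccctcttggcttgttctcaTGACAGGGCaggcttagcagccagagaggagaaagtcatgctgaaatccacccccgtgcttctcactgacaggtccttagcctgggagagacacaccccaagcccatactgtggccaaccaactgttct
Rpia, highest, chr6:70294793-70294992, minus strand: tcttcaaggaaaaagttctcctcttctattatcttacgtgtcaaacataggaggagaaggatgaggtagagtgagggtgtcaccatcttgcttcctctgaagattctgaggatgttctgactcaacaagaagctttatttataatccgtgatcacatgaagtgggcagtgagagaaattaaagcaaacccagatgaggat

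Peaks near a start were found at 3 of the 7 genes, Pgls, Pgd and Taldo1. Over all 21911 protein-coding genes of GENCODE M21, 42.5% had such a peak, so a count of 3 of 7 was close to the background. Counting only peaks that were not of constant height left Pgls and Pgd, 2 of the 7 genes, against 28.8% of all protein-coding genes. At least 1 peak at any distance was assigned to 6 of the 7 genes, against 72.7% of all protein-coding genes. A peak overlapped the gene body of 4 of the 7 (Pgls, Pgd, Taldo1 and Rpia), against 63% of all. The 4 peaks within 1 kb of a start had distances of -125 and 927 bp (Pgls), -228 bp (Pgd) and 607 bp (Taldo1), and the next outside this limit was another Pgls peak at -1502 bp.

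**Figure D1:**
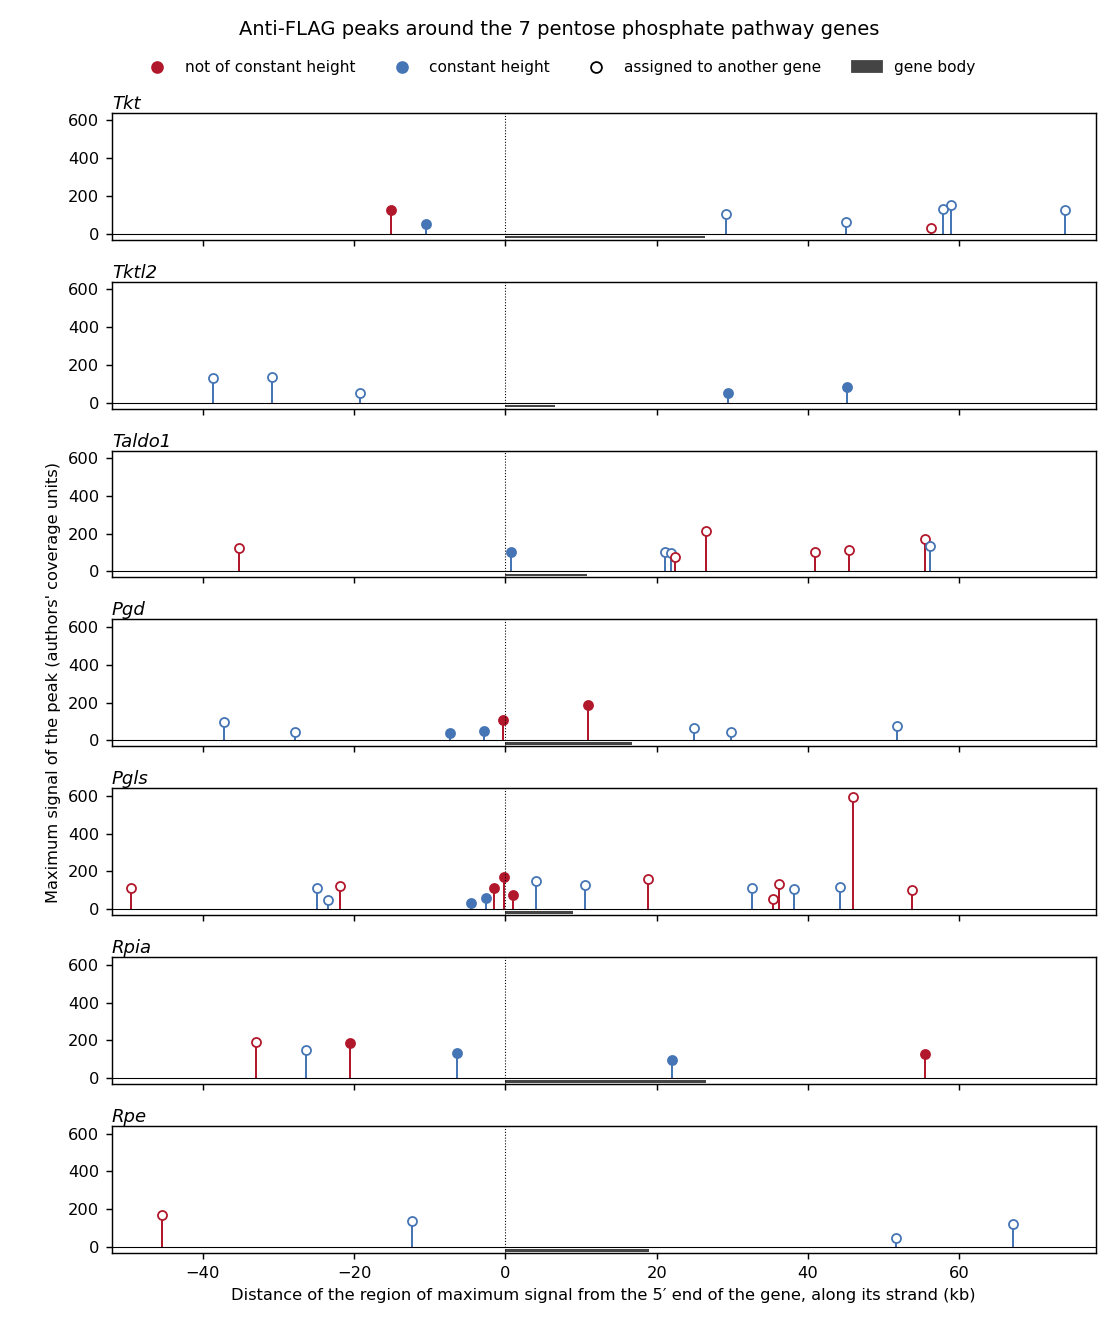
Peaks around each of the 7 genes, with the distance from the gene's 5′ end in kb along its strand on the x axis and the maximum signal in the submitters' coverage units on the y axis. Filled points are peaks assigned to the gene and open points peaks assigned to another, red points are not of constant height and blue points are, and the bar is the gene body. Pgls and Pgd have peaks at the start, while Tkt, Tktl2 and Rpe have none over the gene. The 9 Rpia peaks in the immunoglobulin kappa cluster are beyond the axis.

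In the oxidative branch, Pgls had the densest set of peaks. Pgls (ENSMUSG00000031807.10, chr8:71592176-71601092, plus strand), whose enzyme hydrolyses 6-phosphogluconolactone, was assigned 5 peaks, 4 of them within 3 kb of a start. The highest, at chr8:71591795-71592179, covered the gene's 5′ end, reached a maximum signal of 171 (percentile 87.5) and a total signal of 53825, with a height that varied along it. The peak at chr8:71592861-71593909 lay 927 bp past its assigned TSS and 1048 bp past the gene's 5′ end, over an exon. It was the widest of the 27, at 1049 bp, with a low maximum signal of 74 but a total signal of 53326, close to that of the peak over the start. The other 3 Pgls peaks lay upstream, at -1502, -2271 and -4279 bp, with maximum signals of 112, 61 and 33, so the maximum was lower the farther a peak lay upstream. The farther pair were of constant height. A further peak over the Pgls body, at chr8:71596176-71596334 with a maximum signal of 152, had been assigned to Niban3 and is not among the 27.

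Pgd (ENSMUSG00000028961.15, chr4:149149991-149166771, minus strand), whose enzyme performs the second NADPH-yielding step, was assigned 4 peaks. The one at the start, chr4:149166795-149167656, began 24 bp upstream of the gene's 5′ end and had a maximum signal of 108 (percentile 55.7). Its total signal of 56944 was the highest among the peaks within 1 kb of a start in these genes (percentile 88.0). The Pgd peak with the highest maximum signal, 189 (percentile 90.1), was inside the gene at chr4:149155465-149155936. It lay in an exon, 4142 bp from its assigned TSS, and its region of maximum signal was 10947 bp from the gene's 5′ end. Both varied in height along their length. The other 2 Pgd peaks, at -2583 and -7091 bp, were blocks of constant height with maximum signals of 52 and 37, below the lower quartile of all peaks.

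Glucose-6-phosphate dehydrogenase, the first enzyme of this branch, is encoded by G6pdx on the X chromosome and is not one of the 7 genes. G6pdx had 1 peak, at chrX:74428934-74429600, which covered the start and varied in height, with a maximum signal of 156 and a total signal of 73581. Thus the 3 genes of the cytosolic oxidative branch (G6pdx, Pgls and Pgd) each had a peak of non-constant height within 1 kb of a start, with the nearest peak edge at most 24 bp from the gene's 5′ end. Of the 6 genes of the non-oxidative branch (Rpia, Rpe, Tkt, Tktl1, Tktl2 and Taldo1), 1 had a peak within 1 kb, of constant height, and 0 had one that was not. Over all protein-coding genes the share with such a peak of varying height was 28.8%. G6pd2, another glucose-6-phosphate dehydrogenase gene, had 0 peaks within 1 kb, and counting it with the oxidative branch gives 3 of 4. H6pd, whose enzyme acts in the endoplasmic reticulum, is outside this cytosolic count and also had 0 peaks within 1 kb. This division by branch was made after the values had been seen and was not tested.

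**Figure D2:**
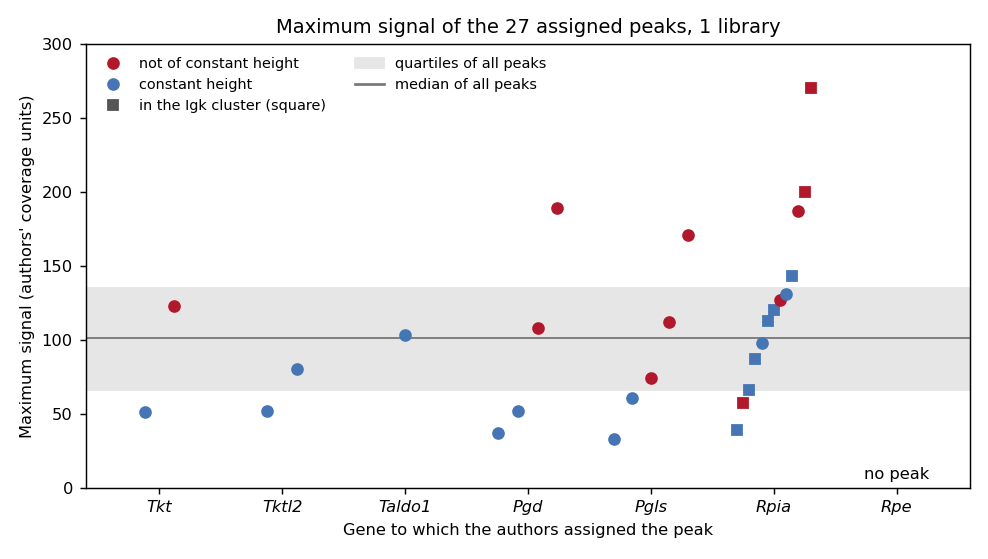
Maximum signal, in the submitters' coverage units on the y axis, of each of the 27 peaks by the gene it was assigned to on the x axis, in 1 library. The grey band spans the quartiles of all peaks (66 to 135) and the line is their median of 101. Squares are peaks in the immunoglobulin kappa cluster, which hold the highest value, 270, among those assigned to Rpia.

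In the non-oxidative branch, Taldo1 was the only gene with a peak near its start. Taldo1 (ENSMUSG00000025503.5, chr7:141392199-141402968, plus strand), whose enzyme transfers a dihydroxyacetone unit between sugar phosphates, was assigned 1 peak, chr7:141392850-141392942, in an intron. It was 93 bp wide and of constant height, with a maximum signal of 103 (percentile 51.8) and a total signal of 9577 (percentile 16.5). Its edge lay 651 bp past the gene's 5′ end, and no peak overlapped the 300 bp RefSeq promoter (250 bp before to 50 bp after the start). By total signal it was the lowest of the 4 peaks near a start in these genes.

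Transketolase moves a ketol unit between sugars and needs thiamine diphosphate. Tkt (ENSMUSG00000021957.7, chr14:30548359-30574720, plus strand) had no peak near its start and none over its 26.4 kb body. The nearer of its 2 assigned peaks, chr14:30537738-30538100 at -11032 bp, was of constant height with a maximum signal of 51 (percentile 16.8) and a total signal of 18496. The farther, chr14:30532870-30533340 at -15844 bp, had a maximum signal of 123 (percentile 67.2) but a total signal of 9977 (percentile 17.5), so its total was 17.2% of maximum signal times its width of 471 bp. The 200 bp window at that maximum was 98% soft-masked repeat in the reference, where the median over all summit windows was 12% and 4.83% of windows reached 90%. Such windows were found at 5 of the 27 peaks, the others being 1 Tktl2 peak (94%), 1 Pgls peak (100%) and 2 Rpia peaks in the kappa cluster (93% and 100%). Whether reads from repeats contribute to these peaks was not tested. On the downstream side the next peak, at chr14:30577381-30577527 with a maximum signal of 105, was assigned to Mir3076.

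The stretch without a peak around the Tkt start was 39.3 kb long, from the end of the nearer upstream peak to this downstream one. Over protein-coding genes, with 0 for a 5′ end that a peak covers, the median of this stretch was 25.3 kb with an upper quartile of 73.6 kb, and 60.5% had one as short or shorter. The nearest edge of any peak was 10259 bp from the 5′ end, and 68.0% of protein-coding genes had a peak as near or nearer. Of the 4760 protein-coding genes with a length within 1.5 times that of Tkt, 73.1% had a peak over the gene body, a group to which Tkt does not belong. The genes whose starts are nearest on either side did have peaks within 1 kb of an assigned TSS. Cacna1d, which encodes a calcium channel subunit, had 5, up to a maximum signal of 125, but 0 within 1 kb of the 5′ end of the whole gene. Prkcd, which encodes a protein kinase C, had 4, up to 154, and 1 of 55 at its 5′ end.

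Tktl2 (ENSMUSG00000025519.5, chr8:66511756-66518335, plus strand), a transketolase-like gene, was assigned 2 peaks, 29201 and 45071 bp downstream of its start, both of constant height with maximum signals of 52 and 80. No peak overlapped the gene, and the nearest of all, upstream at a distance of 19097 bp, had been assigned to Tma16. Of the 7 genes, Tktl2 was the farthest from any peak. The related gene Tktl1, on the X chromosome, was assigned 0 peaks, and the nearest to its 5′ end was 69279 bp away.

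Rpe (ENSMUSG00000026005.15, chr1:66700831-66719805, plus strand), whose enzyme makes xylulose 5-phosphate for transketolase, was assigned 0 peaks, as were 27.3% of protein-coding genes. The nearest peak was 12200 bp upstream, had a maximum signal of 139 and was assigned to Unc80. The peak-free stretch around its start was 63.7 kb, the longest of the 7 genes, and covered the whole gene. Of protein-coding genes, 71.9% had a stretch as short or shorter. Within the length range of Rpe (12.7 to 28.5 kb), 67.8% of protein-coding genes had a peak over the body.

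Rpia (ENSMUSG00000053604.5, chr6:70765720-70792232, minus strand), whose enzyme makes ribose 5-phosphate for nucleotides, was assigned 13 of the 27 peaks, more than any of the other 6 genes, but none near a start. Of these, 9 lay more than 100 kb away, at 101224 to 715004 bp, as did 15.2% of all annotated peaks from their assigned TSS. All 9 were inside the cluster of immunoglobulin kappa genes (chr6:67555497-70726966 in GENCODE M21). Among these 9 peaks the maximum signal ran from 39 to 270, and 6 were of constant height. The highest, chr6:70294642-70295221, had a maximum signal of 270 (percentile 96.7) and a total signal of 97605, the highest of both among the 27. A further peak with a maximum signal of 200, chr6:70434619-70435145, lay on the variable gene segment Igkv6-14.

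The 4 Rpia peaks outside this cluster had maximum signals of 98 to 187. The only one inside Rpia, chr6:70770110-70770328, was intronic and of constant height with a maximum signal of 98. It was 3364 bp from its assigned TSS but 22011 bp from the gene's 5′ end. Upstream, chr6:70798472-70798743 at -6241 bp was of constant height with a maximum signal of 131, and chr6:70812348-70813060 at -20424 bp was not, with a maximum signal of 187 (percentile 89.8) and a total signal of 77534. The fourth, chr6:70736710-70737108, reached 127 and lay beyond the 3′ end of Rpia, 55442 bp from its 5′ end. Without the cluster, the 7 genes had 18 peaks, with maximum signals of 33 to 189.

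**Figure D3:**
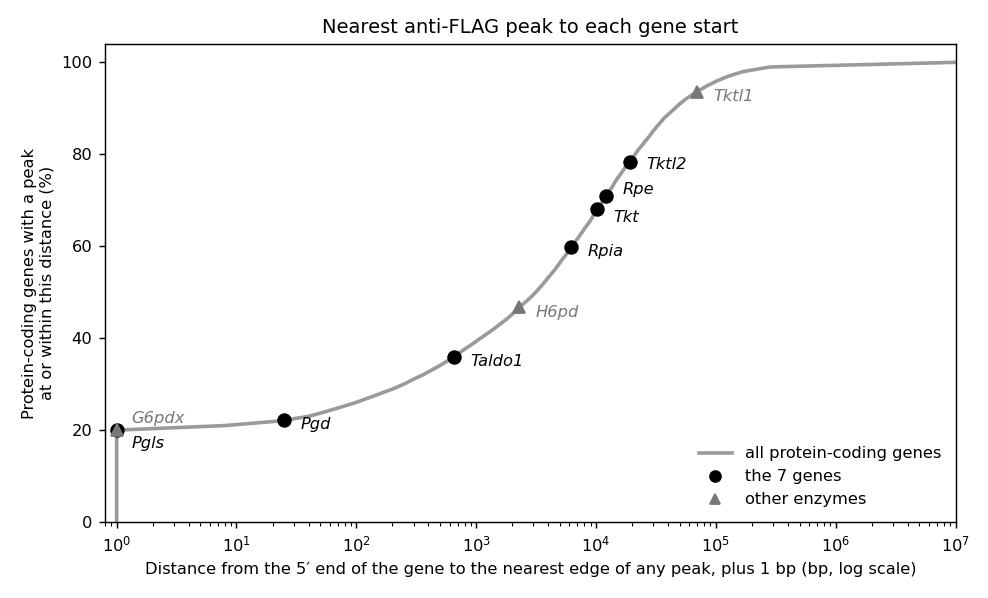
Distance from the 5′ end of a gene to the nearest edge of any peak, plus 1 bp and on a log scale (x axis), against the percentage of protein-coding genes with a peak at or within that distance (y axis). Points are the 7 genes and 3 other enzymes placed on the curve of all protein-coding genes. The 7 genes spread from Pgls, with a peak over its 5′ end, to Tktl2 at 19097 bp.

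Ordered by the distance from the gene's 5′ end to the nearest edge of any peak, the genes ran from Pgls (0 bp), Pgd (24 bp) and Taldo1 (651 bp) to Rpia (6240 bp), Tkt (10259 bp), Rpe (12200 bp) and Tktl2 (19097 bp). The median of the 7 was 6240 bp and that of all protein-coding genes 3140 bp, with quartiles of 73 and 15339 bp. Each gene was also ranked by its strongest peak, as the percentile of that peak's maximum signal, or 0 without a peak. This was 96.7 for Rpia, 90.1 for Pgd, 87.5 for Pgls, 67.2 for Tkt, 51.8 for Taldo1, 34.4 for Tktl2 and 0 for Rpe. The value for Rpia is that of a peak in the kappa cluster, and outside the cluster its highest percentile was 89.8, next below Pgd. The median of 67.2 was next to the 66.5 of all protein-coding genes. Among peaks near a start, the highest maximum signal was 171 for Pgls, 108 for Pgd and 103 for Taldo1, against a median of 135 and quartiles of 94 and 208 over the 9310 protein-coding genes with such a peak. One library gives no spread for these values, so it cannot be said which neighbours in either order differ.

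Constant height applied to 16 of the 27 peaks (59.3%, against 63.3% of all peaks), and 14 of the 27 had a maximum signal above the median of all. The GC content of their summit windows had a median of 47.5%, within the quartiles of all windows (43.5% and 54.0%). In the submitters' classes 13 of the 27 (48.1%) were distal intergenic, against 31.9% of all peaks, of which 8 were assigned to Rpia, 2 to Tkt, 2 to Tktl2 and 1 to Pgd. Introns held 7.41% of the 27 and 38% of all peaks, and exons 14.8% and 3.52%, with 3 of the 4 exonic peaks in the kappa cluster and 1 in Pgd. Of the 2 intronic peaks, both assigned to Rpia, 1 lay inside that gene and 1 in another gene. The class of promoters within 1 kb held 14.8% of the 27 and 15.3% of all.

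The insulin response sequence was in the summit window of 2 of the 27 peaks, both assigned to Rpia (the intronic peak shown above and 1 in the kappa cluster), against 9.95% of the summit windows of all peaks. It was in none of the windows assigned to Tkt, Tktl2, Taldo1, Pgd and Pgls. In windows of 400 bp it was in 3 of the 27, against 19.3% of all windows. When the whole peak was searched, it was in 9 of the 27 peaks, against 17.7% of all peaks. In the 200 bp windows the share, 7.41%, was near the background. It was below the background in 400 bp windows and above it in whole peaks. These differences rest on few peaks and were not tested. Whole peaks differ in searched length, with a median width of 428 bp for the 27 and 363 bp for all. The 9 were the farther Tkt peak, 3 Pgd peaks, 2 Pgls peaks and 3 Rpia peaks. In the 300 bp RefSeq promoters (8 for the 7 genes, with 2 for Pgd), it was found only in that of Tktl2, against 11.3% of all 32851 promoters. The antioxidant response core was in 1 of the 27 summit windows, the upstream Rpia peak, against 7.37% of all, and in 1 of the 8 promoters, the more downstream one of Pgd, against 12.4% of all. A match to these letters is a description of the sequence and does not show a bound site. The promoters themselves held many CG dinucleotides: 32 in Pgls, 24 in Rpia, 23 in the more upstream one of Pgd, 22 in Taldo1, 20 in Tkt, 17 in Rpe and 14 in Tktl2, against a median of 7 over all promoters. The more downstream promoter of Pgd held 9. Peaks overlapped the promoter of Pgls and the more upstream one of Pgd. The promoters of Rpia, Taldo1 and Tkt, with counts near that of Pgd but below that of Pgls, had none. Any relation between CG count and peaks was not tested.

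**Figure D4:**
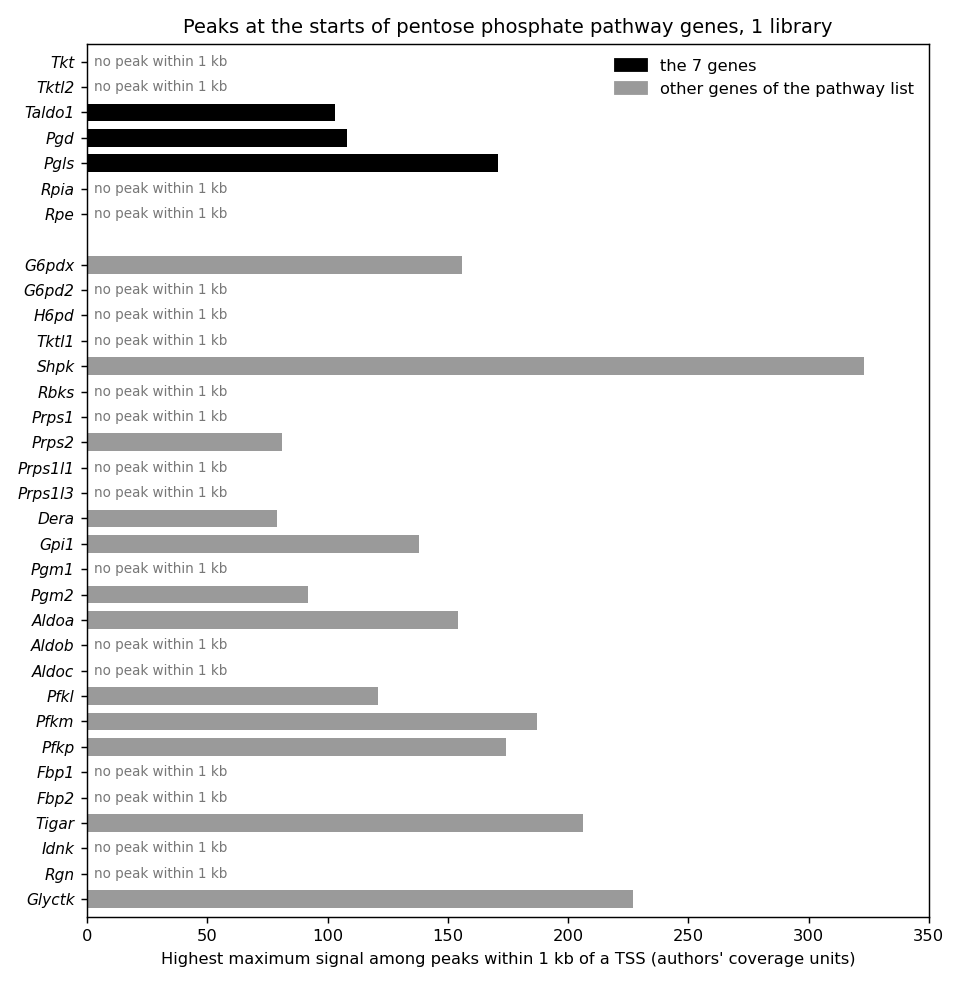
Highest maximum signal, in the submitters' coverage units, among the peaks assigned to a gene within 1 kb of a TSS, for the 7 genes (black) and 26 other genes of the pathway list (grey), in 1 library. Pgls reaches 171 among the 7, and Shpk reaches 323 among the others.

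Around the 7 genes, a list of 26 other genes of the pathway and its links to glycolysis, ribose and sedoheptulose metabolism was counted in the same way. A peak near a start was found at 12 of the 26 (background 42.5%), one not of constant height at 10 of 26 (background 28.8%), and any assigned peak at 19 of 26 (background 72.7%). The highest signals near a start were at Shpk, Glyctk and Tigar. Shpk, which encodes sedoheptulokinase and so supplies a transketolase substrate, had 1 peak of 323 at chr11:73199037-73199626, over its start. Glyctk, a glycerate kinase gene, reached 227, and Tigar, whose product lowers fructose 2,6-bisphosphate and favours flux into the pathway, reached 206 at -103 bp. H6pd, the glucose-6-phosphate dehydrogenase of the endoplasmic reticulum, had 7 peaks but none within 1 kb. Its highest, 308 at chr4:149990224-149991143, lay 10162 bp from its assigned TSS and farther from the 5′ end of the whole gene. G6pd2 was assigned 12 peaks, the nearest at -227606 bp. The submitters' table names 1 gene for each peak, and peaks at the starts of Pgm1 and Rbks were assigned to Itgb3bp and Babam2. Among the 7 genes, the Pgls body peak assigned to Niban3 was left out of the 27 in this way. The count of genes with a peak within 1 kb stayed at 3 when the whole peak was measured to any GENCODE M21 start.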

How the data were processed

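CUT&Tag of the hippocampus of CamK-PARIS mice was deposited as a peak list and an annotation table of the anti-FLAG library. By the account in the labels' protocols, Bowtie2 placed the trimmed reads on mm10, duplicates and reads of low quality were dropped, and the authors ran SEACR with IgG as the control. Versions, mode and stringency are not given in the sources used here. The deposited total and maximum signal are coverage values in whole numbers. The tool behind the deposited distances and gene symbols is not given in the sources used here.

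Peaks and annotations were joined on the region of maximum signal (python 3.11.15, pandas 2.3.3). The deposited copy of the total signal was equal for 100% of annotated peaks, and no peak passed a chromosome end of GRCm38.p6. For the background, GENCODE M21 protein-coding genes were matched by symbol or Ensembl ID. A percentile is the percentage of all peaks with an equal or lower value. Motifs were searched in 200 bp windows, and the search was tested on planted insulin response sequences. The antioxidant response core was not planted. Checks on planted shapes and clusters were written apart from the code run on the peaks, so they do not test that code. The members and lists, and the measure of constant height, were chosen with earlier results of these data known. Genes named are the 7 members, G6pdx, H6pd and Tktl1, the 3 other pathway genes with the highest signal within 1 kb of a TSS, genes with a peak over a member's body, and the nearest gene starts where a result turns on them, with 1 not reported here; Mir3076, Unc80, Tma16, G6pd2, Pgm1, Rbks, Itgb3bp, Babam2 and the genes in the closing observations were added after their values were seen. Depth is unknown, and the number of libraries, 1 per antibody, limits all precision. No file of the IgG library was used here.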

Additional observations from a re-analysis of the deposited data

How the results depend on the processing

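Across 8 results and 62 alternatives, 31 values were labelled the same, 31 moved and 0 reversed. The same label covers a count within 1.5 times, a share within its counting interval of 41.8 to 43.1%, or an equal percentile or distance. A reversal, meaning a change of sign, was looked for only in the median percentile and the Tkt distance. A percentile is never negative and both peaks assigned to Tkt lie upstream, so the 0 is no measure of stability. The stricter sets hold fewer peaks by construction. A wider distance limit can only raise a share and a narrower limit can only lower it. The median over genes with a peak only leaves out Rpe by definition. For the other moves the cause was not tested. No paired analysis was possible because each antibody had 1 library and no result comes from a test. Leaving out assigned peaks over 100 kb from the TSS was chosen after seeing the data and gave 18 peaks at 6 genes.

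The number of peaks assigned to the 7 genes, 27, was 14 with maximum signal above the median and 11 without constant-height peaks. It was 3 in the top 10% by maximum signal and 2 in the top 10% by total signal. Counting instead every peak over the gene bodies with 3 kb on either side gave 12, whether 1 bp or 50% of the peak had to overlap. These 12 are not a subset of the 27, since they include peaks assigned to Niban3 and Mir3076. The genes with a peak, 6, were 2 and 1 in the top 10% by maximum and by total signal, those with a peak within 1 kb were 0 in both, and the other pathway genes with one were 3 and 6. The median highest percentile, 67.2, was 0 in both of these sets, 65.1 with peaks within 1 kb merged, 55.7 ranked by total signal, 51.2 ranked by total signal over width and 77.4 over genes with a peak only.

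The background share of genes with a peak within 1 kb, 42.5%, was 30.2% above the median signal, 12.7% and 14.2% in the top 10% by maximum and by total signal, 37.5% for peaks at least 200 bp wide, 28.8% without constant-height peaks, 36.8% within 500 bp, 51.8% within 3 kb, 57.0% within 5 kb and 47.6% for whole peaks to any GENCODE TSS. The nearest Tkt peak, at -11032 bp in the main result, was at -15844 bp above the median signal and without constant-height peaks. With any peak on the chromosome allowed, the value was -10259 bp. That is the same peak as in the main result, measured from its edge to the gene's 5′ end. The top 10% sets held no Tkt peak, so no value exists there. TATTTTT or TATTTTG was in 9 of the 27 peaks when the whole peak was searched, against 17.7% of all peaks. In windows of 400 bp it was in 3 of the 27, against 19.3% of all windows.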

Other observations

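The 7 genes sat in unlike neighbourhoods. Within 100 kb of the Pgls start lay 32 peaks, and 97.1% of protein-coding genes had as many or fewer, whereas the median gene had 10. Taldo1 had 23 peaks in that range, Tkt 17, Pgd 13, Rpe 9, Rpia 8 and Tktl2 6. The highest of the peaks within 50 kb of any of the 7 genes was assigned to Unc13a, which encodes a protein that primes synaptic vesicles, at chr8:71637511-71639639 with a maximum signal of 593, 45874 bp from the Pgls 5′ end. Beside Taldo1, a peak of 214 was assigned to Gatd1 at chr7:141418484-141418943, and a peak of 173 to Rplp2, which encodes a ribosomal stalk protein. Of 16 peaks in the flanks of Pgls up to 50 kb, 3 were assigned to it, and of 9 beside Taldo1, 0 were. These values come from 1 library and were not tested.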
